A study of Mus musculus with 13 samples.

Results

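The Hox genes of the 4 clusters were examined as all rows of both deposited count tables whose symbol is Hox followed by a, b, c or d and a number, with antisense and opposite-strand transcripts left out. This gave 37 genes of 25183 gene identifiers, and 36 of the 37 had a row in both tables. Cluster a (chromosome 6) held 11, cluster b (chromosome 11) 9, cluster c (chromosome 15) 9 and cluster d (chromosome 2) 8. Hoxb1 and Hoxd12 were not analysed here. The study profiled polyadenylated RNA of mouse small intestine in 13 libraries. Of these, 9 came from crypts, the epithelial pockets that hold the intestinal stem cells, of wild type (WT, n = 3), Eed-/- (Eed KO, n = 3) and Ezh2-/- (Ezh2 KO, n = 3) mice on a mixed C57BL/6-FVB background. All crypt donors were given beta-naphthoflavone for 6 weeks and were 12 weeks old at the end. The other 4 came from crypt-derived organoids, epithelial cultures, treated with the same compound for 10 days, of WT (FVB strain, n = 2) and Eed KO (C57BL/6-FVB, n = 2) origin. The compound activates the AhCre recombinase, which deletes floxed alleles in the epithelium. AhCre is named for the organoids and for the crypts of run 440, their WT controls included. Libraries are named by group, sequencing run (385 or 440) and title number. All organoids and, of the crypts, WT and Eed KO 385_1 and 385_2 were in run 385. Run 440 held WT 440_1, Eed KO 440_1 and the 3 Ezh2 KO crypts.

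Hox genes encode homeodomain transcription factors that give cells their position along the body axis. Within a cluster the genes lie in the order in which they are used from head to tail, and genes of the same number in different clusters, the paralogues, descend from 1 ancestral gene. Cells keep the Hox genes of other body regions silent with Polycomb repressive complex 2 (PRC2), which trimethylates lysine 27 of histone H3. Eed is the core subunit that the complex needs for its activity, and Ezh2 is its methyltransferase, for which Ezh1 can stand in. Below, paralogues 1 to 3 are called anterior (7 genes), 4 to 8 central (15) and 9 to 13 posterior (15).

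The start regions of some of these genes were read for CpG, the dinucleotide whose unmethylated clusters are known to recruit PRC2. The RefSeq promoter table (GRCm38.p6) held 22 windows for 20 of the 37 genes, each from 250 bases before to 50 after a transcription start. Of clusters b and c only Hoxb4, Hoxb8 and Hoxc4 had a window. The windows held a median of 17.5 CpG (range 4 to 45), against a median of 7 over 32817 windows of all genes. Windows of Hoxa9, Hoxd4, Hoxd8 and Hoxd11 lay below that second median, at 4 to 6 CpG, though another Hoxd11 window held 25. CpG was counted as the letters CG, which read the same on both strands. The letters TATAAA on either strand were in 18.2% of the Hox windows and 13.6% of all windows. A match is a description of the letters and not a mapped site. The 250 bases before the start are printed for 4 genes, 5′ to 3′ on the gene's own strand, with each CG in capitals. Hoxa13 and Hoxd13 end their clusters and had no count in WT. Hoxa3 was the Hox gene with the most counts in WT crypts. Hoxa9 had 1 count in WT crypts and a window poor in CpG.
Hoxa3 (chr6:52213068-52213317, minus strand): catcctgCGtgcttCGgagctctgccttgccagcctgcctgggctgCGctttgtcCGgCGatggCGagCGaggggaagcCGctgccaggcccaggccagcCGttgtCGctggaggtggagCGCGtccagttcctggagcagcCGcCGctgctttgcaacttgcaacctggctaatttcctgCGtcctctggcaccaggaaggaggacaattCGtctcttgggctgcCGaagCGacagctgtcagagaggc
Hoxa9 (chr6:52227371-52227620, minus strand): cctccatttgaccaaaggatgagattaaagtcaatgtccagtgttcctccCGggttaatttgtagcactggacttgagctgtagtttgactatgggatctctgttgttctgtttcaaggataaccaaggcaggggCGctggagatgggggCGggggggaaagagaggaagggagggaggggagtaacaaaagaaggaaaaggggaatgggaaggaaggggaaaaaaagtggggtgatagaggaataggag
Hoxa13 (chr6:52260881-52261130, minus strand): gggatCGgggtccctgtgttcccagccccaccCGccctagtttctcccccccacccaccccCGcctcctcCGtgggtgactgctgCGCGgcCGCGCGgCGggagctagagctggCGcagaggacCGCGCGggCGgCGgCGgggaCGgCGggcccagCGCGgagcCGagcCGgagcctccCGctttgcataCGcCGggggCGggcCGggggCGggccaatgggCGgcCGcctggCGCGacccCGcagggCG
Hoxd13 (chr2:74667975-74668224, plus strand): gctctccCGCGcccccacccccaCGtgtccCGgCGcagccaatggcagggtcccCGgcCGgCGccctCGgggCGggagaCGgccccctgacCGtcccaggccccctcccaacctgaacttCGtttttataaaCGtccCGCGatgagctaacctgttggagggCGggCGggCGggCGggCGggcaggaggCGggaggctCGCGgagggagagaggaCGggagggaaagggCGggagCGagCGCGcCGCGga
These stretches hold 18, 3, 35 and 31 CG in that order. In the whole window Hoxa13 had 45 CG, a number that 1.93% of all windows reach. Hoxd13 had 37, which 5.59% reach, Hoxa3 had 20, which 26.5% reach, and Hoxa9 had 4, which 68.6% reach.

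Depth ran from 11421666 to 18300644 counts per library. Levels are given in CPM, counts scaled to a common library size with TMM correction, and levels per length in RPKM, which is CPM per kilobase of exon. Eed, checked first, stood at 19.1 ± 5.16 CPM in Eed KO crypts (SD, n = 3) and 54.5 ± 5.26 in WT crypts (n = 3). In organoids it stood at 24.9 ± 7.98 in Eed KO (n = 2) and 67.9 ± 7.83 in WT (n = 2). Ezh2 stood at 19.2 ± 2.30 CPM in Ezh2 KO crypts (n = 3) and 86.1 ± 12.2 in WT crypts. The RNA that remains can come from undeleted cells or from an allele read without its deleted exons, and the labels do not name those exons. The sexes differ between some groups. Xist, transcribed from the inactive X chromosome, was at 2.67 and 2.75 CPM in WT crypts 385_1 and 385_2 and at 1839 and 3471 in the Eed KO crypts of that run. All 5 crypts of run 440 had 289 to 1622 CPM of Xist and no count of the Y-linked Ddx3y. WT organoids had 1308 and 1367 CPM of Xist and Eed KO organoids 0.957 and 1.45. In the crypts of run 385 genotype and sex pattern cannot be told apart, and in organoids genotype, sex pattern and strain cannot. The epithelial markers Epcam, Cdh1, Vil1, Krt8 and Cdx2 had counts in every library. They summed to 3160, 2833 and 5608 CPM in Eed KO crypts 385_1, 385_2 and 440_1 and to 4712 to 6375 in the other 10 libraries, so both Eed KO crypts of run 385 stood apart. Epcam, an epithelial adhesion molecule, was lower in Eed KO than in WT crypts (log2 fold change -0.71 ± 0.14, SE, adjusted p = 0.00689, edgeR), as was Cdx2. The part of this in the Hox levels was not tested. Whether the libraries of one group are separate animals or cultures is not in the labels. The p-values therefore speak only of the spread among libraries, part of which may be technical.

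Hoxd3 and Hoxd4 were not counted alike in the tables of the 2 runs. In run 385 Hoxd3 had 331 and 434 counts in Eed KO crypts and 6 and 14 in WT crypts. In run 440 it had 1 count in Eed KO 440_1, 3 in WT 440_1 and none in Ezh2 KO. The table of run 440 lists Hoxd4 on its own, with 34 counts in Eed KO 440_1, 5 in WT 440_1 and 15, 2 and 3 in Ezh2 KO 440_1, 440_2 and 440_3. The table of run 385 has no Hoxd4 row. Hoxd3 spans chr2:74711927-74748442 and Hoxd4 chr2:74711929-74729160 on the same strand (GRCm38, run 440 table). Hoxd4 therefore lies almost wholly inside Hoxd3, and another row, named HOXD3, lies at chr2:74726728-74747918. Sums below leave out both genes. Of the 6 comparisons that span both runs, Hoxd3 was called in 1, Eed KO against WT crypts, and that count is also given without it. Of the 36 genes in both tables, 18 had another start or end in one of them, Hoxd3 included. Gene spans also overlap for 12 members in run 385 and 11 in run 440, among them Hoxa2 to Hoxa6 and Hoxc5 to Hoxc10, so reads in shared exons can be dropped or assigned to a neighbour. The labels do not say whether counting used the strand.

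**Figure D1:**
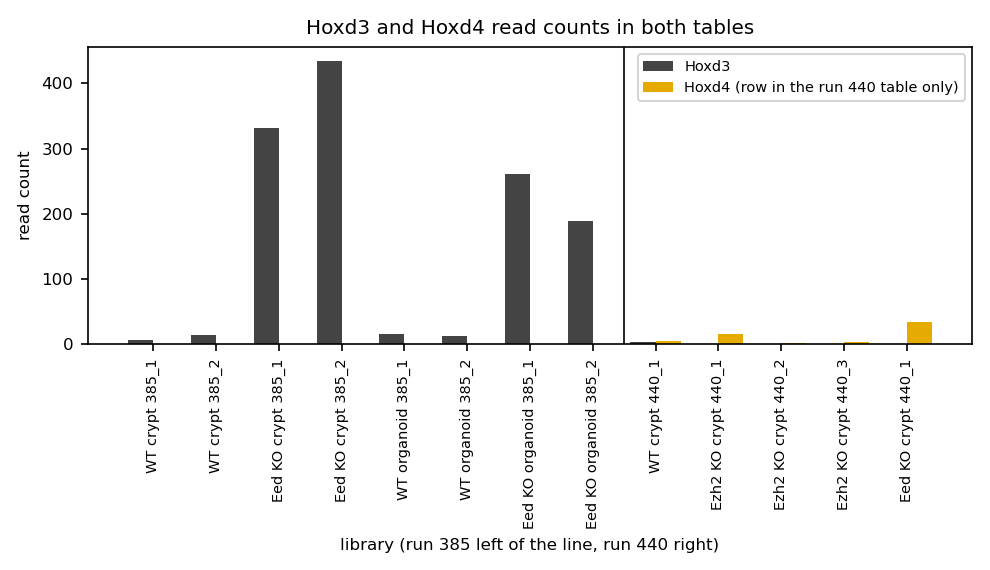
Read counts of Hoxd3 (dark bars) and Hoxd4 (yellow bars) in each of the 13 libraries, run 385 left of the line and run 440 right. Hoxd3 reaches 331 and 434 counts in the Eed KO crypts of run 385 and 1 in that of run 440, while Hoxd4 has a row in the run 440 table only.

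WT small intestine held Hox transcripts of low paralogue number and almost none of high number. Over 35 genes, without Hoxd3 and Hoxd4, the summed level was 7.39, 11.6 and 23.9 CPM in WT crypts 385_1, 385_2 and 440_1 and 14.4 and 14.1 in WT organoids. Posterior genes took 5, 1 and 22 counts of this in the 3 WT crypts and no count in either WT organoid. A count of 0 over the WT organoids allows up to 0.12 CPM (3 counts over the group), which like all intervals here covers counting error only. No count was found in any WT crypt for 10 of the 15 posterior genes.

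Hoxa3, an anterior gene, was the most abundant in WT. It stood at 2.85, 3.48 and 4.17 CPM in WT crypts 385_1, 385_2 and 440_1 and at 8.20 and 6.94 in WT organoids 385_1 and 385_2. Hoxa2, which lies beside it, stood at 1.07, 0.917 and 0.613 CPM in the crypts and 2.33 and 1.46 in the organoids. Both WT organoids were above all 3 WT crypts for both genes. Hoxa4 stood at 0.712, 0.917 and 1.65 CPM in WT crypts and 1.43 and 1.54 in WT organoids, and Hoxa5 at 0.267, 1.19 and 0.858 against 0.526 and 1.63. These 2 central genes overlapped between crypts and organoids. Per length, Hoxa4 (0.687 ± 0.311 RPKM), Hoxa3 (0.582 ± 0.110), Hoxb6 (0.582 ± 0.573) and Hoxa2 (0.488 ± 0.131) led in WT crypts and did not differ beyond their spread (SD, n = 3). In WT organoids Hoxa3 (1.26 ± 0.148), Hoxa2 (1.07 ± 0.348) and Hoxa4 (0.932 ± 0.0505) led (SD, n = 2).

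Hoxb and Hoxc transcripts in WT depended on the library. Hoxb2 to Hoxb9 summed to 1.16, 3.21 and 11.5 CPM in WT crypts 385_1, 385_2 and 440_1, and to 0.677 and 0.514 in WT organoids. Hoxc4 to Hoxc8 summed to 0.267, 1.19 and 2.57 CPM in those crypts and to 0.0752 and 0 in the organoids. Hoxa2 to Hoxa7, in contrast, summed to 5.61, 6.78 and 8.40 CPM in the crypts and to 12.9 and 12.7 in the organoids. Hoxb3 alone stood at 0.267, 0.458 and 2.57 CPM in the crypts and had 1 count in all in the organoids. Hoxb6 stood at 0.0890, 1.01 and 2.33 CPM in the crypts and 0.301 and 0.0857 in the organoids. The 12 markers of mesenchyme, muscle and endothelium summed to 45.5, 94.4 and 488 CPM in the same 3 crypts and to 5.86 and 11.5 in the organoids, where Col1a2, Col3a1, Cdh5 and Kdr had no count. In a direct test of WT crypts against WT organoids, chosen after seeing the data, Hoxb3, Hoxb7 and Hoxc6 were higher in crypts (adjusted p = 0.0284, 0.0364 and 0.0472, edgeR quasi-likelihood test over all genes, Benjamini-Hochberg) and Hoxa3 lower (log2 -1.15 ± 0.26, SE, adjusted p = 0.00716). Of all 14761 genes tested, 18.9% were higher and 9.17% lower, so a count of 3 and 1 among 35 is not a result about Hox genes as a group. WT crypts and WT organoids also differed in induction time, culture, strain and, in run 385, sex pattern, and these cannot be told apart. The number of calls was 0 (edgeR) without WT organoid 385_1, 1 without WT organoid 385_2, 2 without Ezh2 KO 440_3 and 9 without WT crypt 385_1. The part of other cell types in the Hoxb and Hoxc levels was not tested, and fewer cells of a type cannot be told from less RNA per cell.

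**Figure D2:**
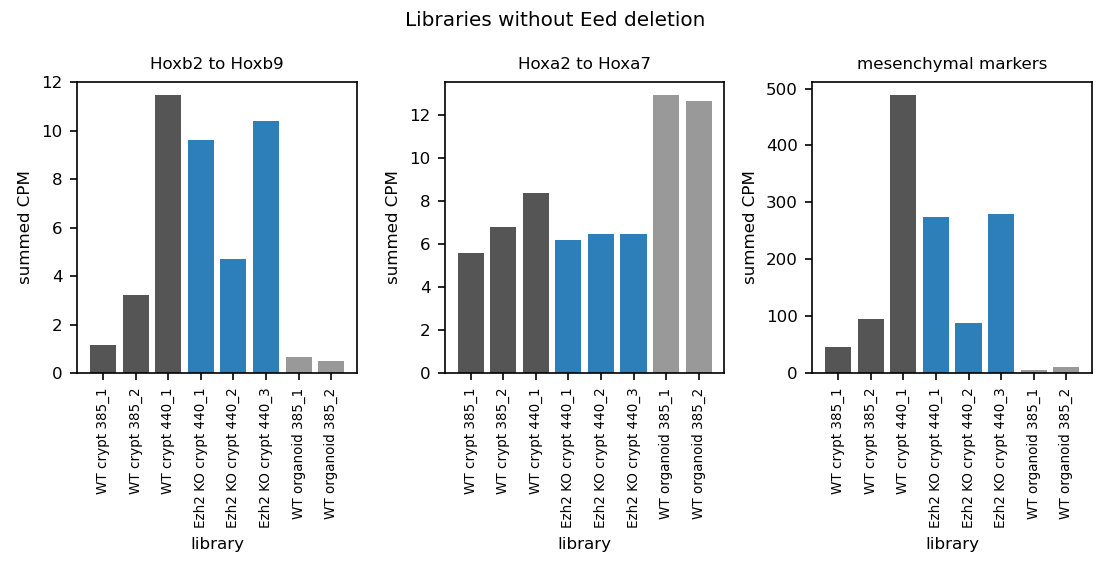
Summed CPM of Hoxb2 to Hoxb9 (left), Hoxa2 to Hoxa7 (middle) and the 12 markers of mesenchyme, muscle and endothelium (right) in each library without Eed deletion (dark grey WT crypts, blue Ezh2 KO crypts, light grey WT organoids). Hoxb2 to Hoxb9 and the markers are highest in WT crypt 440_1 (11.5 and 488 CPM) and near 0 in organoids, where Hoxa2 to Hoxa7 are highest (12.9 and 12.7 CPM).

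Eed KO crypts had higher levels of Hox genes of all 4 clusters than WT crypts, and most of the added RNA was posterior. The 35 genes summed to 445, 471 and 375 CPM in Eed KO crypts 385_1, 385_2 and 440_1, against 7.39 to 23.9 in WT crypts. Posterior genes took 62.1% to 71.4% of the Hox counts of an Eed KO crypt and 0.794% to 6.02% of those of a WT crypt. By class, anterior genes summed to 22.3 ± 2.05 CPM (SD, n = 3) against 5.98 ± 2.16 in WT, central genes to 126 ± 37.0 against 7.67 ± 5.90 and posterior genes to 282 ± 12.97 against 0.628 ± 0.648. The groups did not overlap in any class. Of the 35 genes that passed the low-count filter, 33 were higher and none lower (edgeR quasi-likelihood test over 14406 genes, run as a term, adjusted p under 0.05), where 13.4% of all genes were higher and 10.6% lower. Without Hoxd3 (log2 fold change 4.49 ± 0.97, SE, adjusted p = 0.0171) the count was 32 of 34. With genes lacking WT counts set at their lower bound, the 35 log2 fold changes had a median of 4.60 (4.93 as fitted), against -0.04 over all genes tested. The filter passed 27 of the 35 only through the Eed KO libraries, so this count is a description. Of the 8 that passed without them, 7 were higher. In run 440 alone, with 1 WT and 1 Eed KO library, both with a female pattern, 15 of 34 were higher, where 5.87% of all genes were. The spread in that fit comes only from the 3 Ezh2 KO libraries, and the lone libraries are assumed to vary like them. In run 385 alone 33 of 35 were, where 16.6% of all genes were. Without the Ezh2 KO libraries 30 of 34 were higher, where 10.6% of all genes were, and Hoxa2, Hoxc4 and Hoxc5 lost their calls. With same-numbered libraries as a block in that fit it was 24 of 34, where 7.58% of all genes were. Hoxa3, Hoxb4, Hoxb8, Hoxc8 and Hoxd3 were among the 6 calls lost with the block, and none was posterior.

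**Figure D3:**
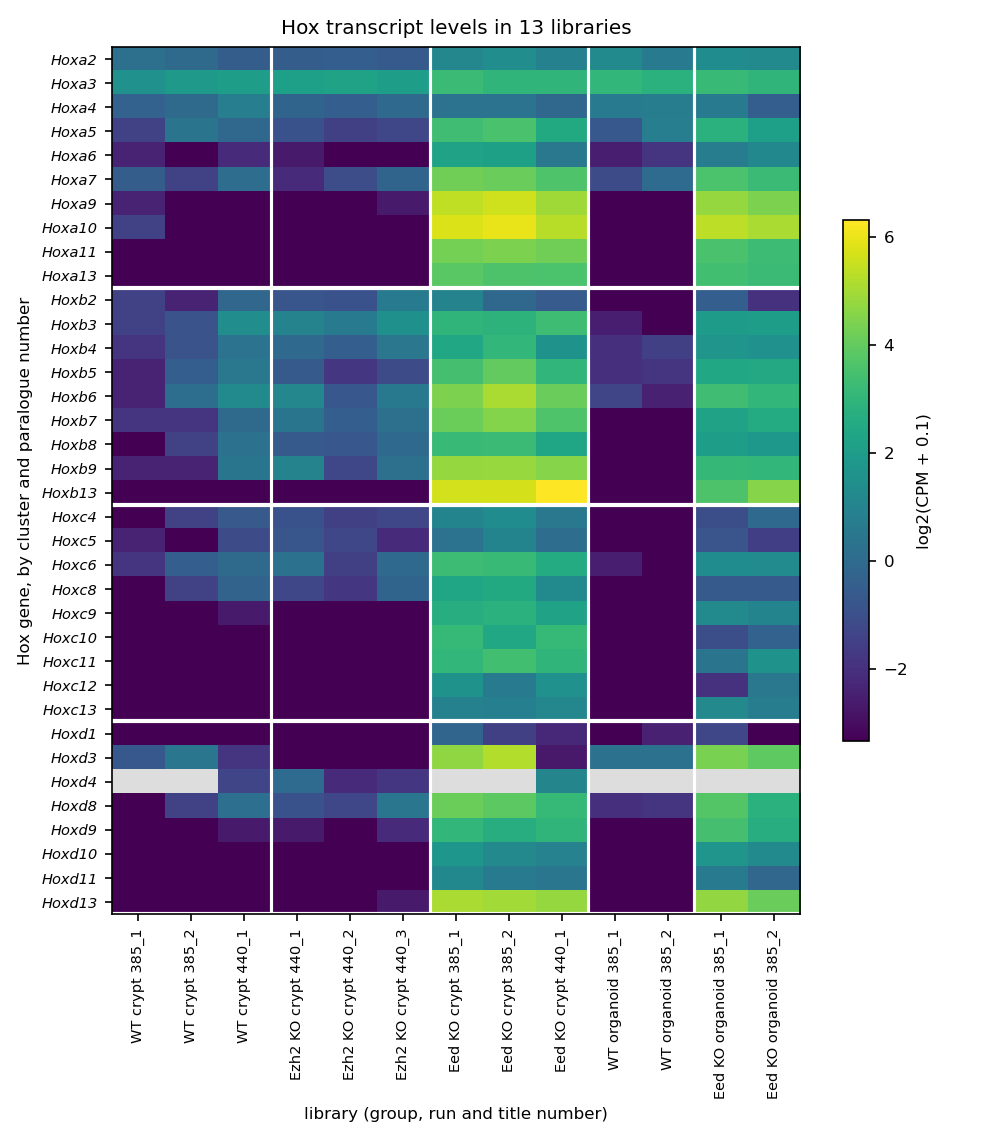
Level of 36 Hox genes in each library as log2(CPM + 0.1), with genes by cluster and paralogue number from top to bottom and libraries by group from left to right. Grey cells have no row in that run's table. Eed KO crypts and organoids are bright over posterior genes that are dark in WT and Ezh2 KO, and Hoxa4 differs little between groups.

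Among the posterior genes, Hoxb13 and Hoxa10 had the highest levels in Eed KO crypts. Hoxb13, a marker of the tail end of the axis and known in adults from colon and prostate, stood at 50.8, 51.6 and 79.4 CPM in Eed KO crypts 385_1, 385_2 and 440_1 and had no count in 3 WT crypts. It was at least 804-fold higher (adjusted p = 0.000209, edgeR). Hoxa10, known for its part in the uterus, stood at 56.5, 62.9 and 38.5 CPM. It was thus above Hoxb13 in the crypts of run 385 and below it in 440_1. WT crypts held 3 counts of it, all in 385_1, which gives a ratio of 653 (95% exact counting interval 223 to 3170). Hoxa9, known from blood progenitors, stood at 41.8, 49.1 and 30.9 CPM against 1 WT count, a ratio of 1516 (272 to 59898). For these genes the lowest Eed KO library lay far above every WT crypt. Hoxd13, a gene of digits and the genital tubercle, stood at 34.2, 31.3 and 27.7 CPM against no WT count, at least 394-fold higher. Hoxb9 stood at 27.9, 28.3 and 23.5 CPM in Eed KO and at 0.0890, 0.0917 and 1.23 in WT crypts 385_1, 385_2 and 440_1 (log2 fold change 5.90 ± 0.79, SE, adjusted p = 0.00123). Hoxb9 was thus the posterior gene with the most WT counts, 22 in all, mostly in WT 440_1. Hoxa11, a limb and uterine gene, stood at 19.4, 21.2 and 18.8 CPM and Hoxa13, a hindgut and digit gene, at 14.4, 12.3 and 12.0, both with no WT count. They were at least 252-fold and 164-fold higher. The other posterior genes, Hoxc9 to Hoxc13 and Hoxd9 to Hoxd11, had group means of 1.67 to 8.73 CPM. All 15 posterior genes were higher, and all 15 had counts in each Eed KO crypt. With no low-count filter, every Eed KO crypt lay above every WT crypt for 33 of the 36 Hox genes in both tables. Among all genes with a count, 15.9% did. The exceptions were Hoxa4, Hoxb2 and Hoxd3, the last with its low count in Eed KO 440_1.

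Central genes rose from low but measurable WT levels. Hoxb6 stood at 21.0, 33.8 and 17.2 CPM in Eed KO crypts 385_1, 385_2 and 440_1 (log2 fold change 4.48 ± 0.79, SE, adjusted p = 0.00414). Hoxb7 stood at 17.7, 22.8 and 12.4 CPM against 0.178, 0.183 and 0.919 in WT 385_1, 385_2 and 440_1 (5.30 ± 0.60, adjusted p = 0.000562). Hoxa7 stood at 18.4, 17.0 and 12.5 CPM against 0.623, 0.275 and 0.981 (4.62 ± 0.56, adjusted p = 0.00076). Each was lowest in Eed KO 440_1 among the Eed KO crypts and still above every WT crypt. Hoxd8 stood at 17.5, 14.6 and 8.70 CPM against 0, 0.275 and 1.04 (4.93 ± 0.87, adjusted p = 0.00422), and Hoxb5 at 11.01, 15.8 and 7.93 against 0.0890, 0.642 and 1.35 (4.08 ± 0.69, adjusted p = 0.00339). Hoxa5, a gene of lung and gut patterning, stood at 10.2, 11.5 and 5.70 CPM (3.47 ± 0.50, adjusted p = 0.0016). Of the 14 central genes tested, 13 were higher, and Hoxa4 was not. Hoxa4 stood at 1.17, 1.18 and 0.823 CPM in Eed KO against 0.712, 0.917 and 1.65 in WT (-0.03 ± 0.43, adjusted p = 0.973). The summed level of the class was 134, 158 and 85.2 CPM in Eed KO 385_1, 385_2 and 440_1, so the library of run 440 was low. Over single genes other than Hoxd3, with at least 30 Eed KO counts, the level in Eed KO 440_1 was 0.306 to 1.55 times the mean of the run 385 crypts. The 2 ends of that range were Hoxa6 and Hoxb13.

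Anterior genes had the lowest median log2 fold change of the 3 classes, 1.46 over 5 genes without Hoxd3 and 2.38 over 6 with it. With bounds for genes lacking WT counts, the median was 3.93 for central and 7.36 for posterior genes. Hoxa3 stood at 9.45, 7.78 and 7.76 CPM in Eed KO crypts 385_1, 385_2 and 440_1, above its WT range (log2 fold change 1.26 ± 0.25, SE, adjusted p = 0.00717, or 0.08 with same-numbered libraries as a block). Hoxa2 stood at 2.11, 2.54 and 1.76 CPM (1.32 ± 0.33, adjusted p = 0.0196, 0.0539 without the Ezh2 KO libraries and 0.126 with the block as well), a call that was lost in 10 of 17 alternatives. Hoxb3 stood at 7.73, 7.44 and 9.99 CPM (3.30 ± 0.54, adjusted p = 0.00301). It was also the anterior gene with the highest level per length, Hoxd3 aside. Hoxb2 was not called (1.46 ± 0.86, adjusted p = 0.261). It was at 1.87, 0.846 and 0.588 CPM in Eed KO and 0.267, 0.0917 and 0.797 in WT, so its groups overlapped. Hoxd1 was too low to test, with 15 counts in Eed KO and none in WT crypts. The markers of mesenchyme, muscle and endothelium summed to 94.4 to 148 CPM in Eed KO crypts, inside the WT range, and 0 of 11 tested were called by edgeR. Immune markers summed to 55.9 to 151 CPM against 54.7 to 66.7 in WT, and of 7 tested Laptm5 and Tyrobp were higher and Itgam lower. Of 3 neuronal and glial genes tested none was called by edgeR, and their 7 markers summed to 9.58 to 11.9 CPM against 7.17 to 10.1. The part of these cells in the Hox levels was not tested.

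Per length, Hoxb13 led in Eed KO crypts at 27.5 ± 7.38 RPKM (SD, n = 3), followed by Hoxa10 at 16.1 ± 3.88. Hoxb13 was above Hoxa10 in each of the 3 libraries. Hoxd13 (12.5 ± 1.31), Hoxb6 (12.2 ± 4.45), Hoxb7 (11.4 ± 3.38) and Hoxb9 (10.3 ± 1.04) came next. Hoxb6 and Hoxb7 overlapped with each other and with both of the others, while Hoxd13 at 13.8, 12.6 and 11.2 RPKM lay above Hoxb9 at 10.8, 11.01 and 9.13 in Eed KO 385_1, 385_2 and 440_1. Along cluster a the level rose in a step: Hoxa2 to Hoxa4 lay at 0.665 to 1.39 RPKM and Hoxa5 to Hoxa13 at 3.89 to 16.1, with Hoxa10 the peak. In cluster b it ran from 0.316 ± 0.195 at Hoxb2 to 12.2 at Hoxb6, fell to 2.97 ± 0.920 at Hoxb8 and was highest at Hoxb13. Cluster c ran from 0.444 ± 0.163 at Hoxc5 to 4.32 ± 0.687 at Hoxc11. In cluster d, Hoxd8 stood at 4.96 ± 1.64, Hoxd9 at 3.48 ± 0.454, Hoxd10 at 1.33 ± 0.393 and Hoxd11 at 0.396 ± 0.110, between Hoxd8 and the high Hoxd13. Levels thus did not climb evenly with paralogue number in any cluster. The class medians were 1.04 RPKM for 6 anterior, 3.66 for 14 central and 4.32 for 15 posterior genes.

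**Figure D4:**
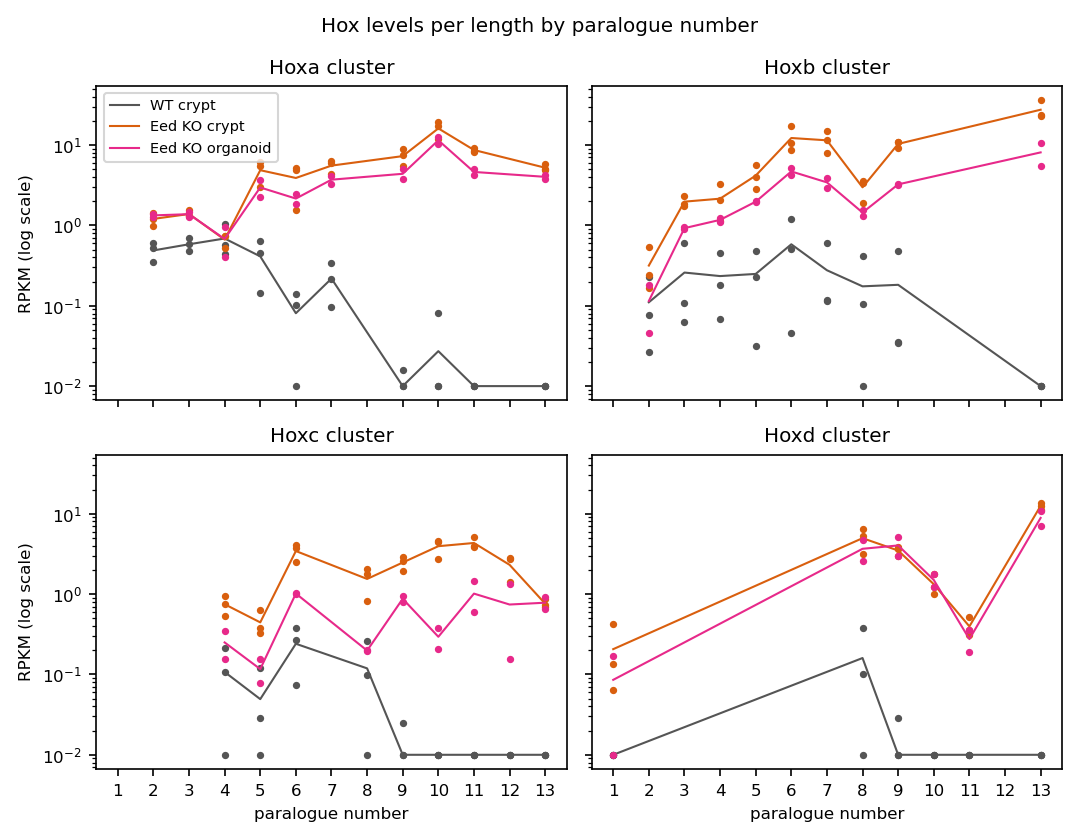
RPKM on a log axis against paralogue number for each cluster, in WT crypts (grey), Eed KO crypts (orange) and Eed KO organoids (pink). Points are libraries, lines join group means, values under 0.01 are drawn at 0.01, and Hoxd3 and Hoxd4 are among the genes left out. WT and Eed KO crypts meet at Hoxa4 and lie farthest apart from paralogue 9 on.

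In Ezh2 KO crypts the posterior genes stayed at or near 0. In Ezh2 KO crypts 440_1, 440_2 and 440_3 the 35 genes summed to 18.9, 12.9 and 20.8 CPM, inside the WT range. Posterior genes summed to 1.94, 0.317 and 1.32 CPM, and 11 of the 15 had no count in any Ezh2 KO crypt. Hoxb9 stood at 1.87, 0.317 and 1.07 CPM and held most of those posterior counts. Of the 35 Hox genes in the fit, 9 posterior genes had no count in either WT or Ezh2 KO crypts, so that no call was possible for them. None of the other 26 was called by edgeR against WT crypts, where 0.0208% of all genes were called in either direction. None had an unadjusted p under 0.05 either, where 8.18% of all genes did, and DESeq2 also called 0. Over the 22 genes with a count in both groups the median log2 fold change was 0.18, against 0.01 over all genes tested. Leaving out WT crypt 440_1, the only WT library of that run, gave 1 call, Hoxb7, where 3.49% of all genes were called. That 1 call is near the background. The same fit gave 9 of 35 Hox genes higher and 0 lower at an unadjusted p under 0.05 (edgeR). Over all genes 24.0% had such a p in either direction, and the share higher was not counted. Adjusted calls over all genes were 254 higher and 259 lower. The 9, all in 1 direction, thus have no like share to stand beside. Hoxa3 stood at 4.19, 4.57 and 3.97 CPM and Hoxb6 at 2.12, 0.507 and 1.39. Hoxb2 to Hoxb9 summed to 9.62, 4.69 and 10.4 CPM and mesenchymal markers to 274, 87.7 and 279 in the same order, so the library with the lowest of the first had the lowest of the second. The link between them was not tested.

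Tested directly, 30 of 35 genes were higher in Eed KO than in Ezh2 KO crypts and none lower (edgeR, adjusted p under 0.05), where 12.0% of all genes were higher and 8.05% lower. This comparison shares its Eed KO libraries with the one against WT. The filter passed 27 of the 35 only through those libraries, so the count is a description, and of the 8 that passed without them 7 were higher. All 15 posterior genes were among the 30. Hoxa4, Hoxb2, Hoxc4, Hoxc5 and Hoxd3 were not called. Hoxb13 and Hoxa13 had no count in either WT or Ezh2 KO crypts. Without Eed KO 440_1, the only Eed KO crypt in the run of the Ezh2 KO crypts, the count was 18, where 7.74% of all genes were higher. Within run 440, where Eed KO is a single library, it was 27 of 34, where 12.1% of all genes were.

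Eed KO organoids held Hox transcripts of all 3 classes, and their summed level was below that of Eed KO crypts. The 35 genes summed to 244 and 210 CPM in Eed KO organoids 385_1 and 385_2, against 14.4 and 14.1 in WT organoids. Posterior genes summed to 160 and 141 CPM, or 65.6% and 67.1% of Hox counts. The markers of mesenchyme, muscle and endothelium summed to 14.7 and 10.9 CPM in these libraries, and Col3a1, Cdh5 and Kdr had no count. Of 3 of these markers tested, Pdgfra was higher than in WT organoids, with 20 and 26 counts against 1 and 5 (edgeR). Of 3 neuronal and glial genes tested, Ret was higher. Their 7 markers summed to 16.1 to 16.8 CPM against 7.14 to 7.54 in WT organoids. The part of such cells in the Hox levels was not tested. Of 29 Hox genes that passed the filter, 25 were higher and none lower (edgeR over 12958 genes, adjusted p under 0.05). Over all genes 13.5% were higher and 4.63% lower. The filter passed 25 of the 29 only through the Eed KO libraries, so this count too is a description. Of the 4 that passed without them, 1 was higher, Hoxd3. Hoxd3 stood at 20.8 and 15.2 CPM against 1.13 and 1.11 (log2 fold change 3.99 ± 0.29, SE, adjusted p = 0.000286).

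Hoxa10 led in organoids, with 41.0 and 33.8 CPM in Eed KO 385_1 and 385_2 and no WT count, at least 311-fold higher (adjusted p = 7.43e-05, edgeR). Hoxa9 stood at 27.8 and 21.1 CPM, at least 204-fold higher, and Hoxd13 at 26.7 and 17.3, at least 183-fold. Hoxb13 stood at 12.1 and 23.6 CPM, at least 148-fold higher. These 4 posterior genes were absent from the WT counts. Hoxa11 stood at 11.6 and 9.58 CPM, Hoxa13 at 10.5 and 9.34 and Hoxb9 at 8.45 and 8.21, all with no WT count. Among central genes, Hoxd8 stood at 13.1 and 7.003 CPM against 0.150 and 0.171 in WT, and Hoxa7 at 12.0 and 9.34 against 0.376 and 0.943. Hoxb6 stood at 10.1 and 8.29 CPM, Hoxb5 at 5.42 and 5.55, Hoxb7 at 4.55 and 6.04 and Hoxa5 at 6.94 and 4.19. All of these lay above both WT organoids, as did 32 of the 36 genes with a row, where 29.8% of all genes with a count did. Hoxa2, Hoxa3 and Hoxa4 were among the 4 genes tested but not called. Hoxa3 stood at 8.85 and 7.73 CPM against 8.20 and 6.94 in WT, and the groups overlapped (0.13 ± 0.23, adjusted p = 0.771). Hoxa2 stood at 2.47 and 2.25 CPM against 2.33 and 1.46 (0.31 ± 0.38, adjusted p = 0.658).

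An interaction term fitted to all 13 libraries asked whether the response to Eed loss differed between crypts and organoids. In run 385 the sex pattern went with genotype in opposite directions in crypts and organoids, and organoid genotypes differed in strain. These cannot be told apart from a difference in response. No Hox gene of 35 passed (edgeR), where 4.12% of all genes did, and 3 had an unadjusted p under 0.05. DESeq2 called 1, Hoxa3. For 21 genes without a count in WT organoids the organoid fold change, and so the interaction, has no defined size. Of these, 10 posterior genes had no count in WT crypts either. The lack of a call says little of them. Hoxa3 came nearest, with a log2 fold change in crypts 1.12 ± 0.34 (SE) above that in organoids (adjusted p = 0.0962). It was called without Eed KO crypt 440_1 (adjusted p = 0.045, edgeR) or without WT crypt 440_1 (adjusted p = 0.0405), where 2 genes passed in each case. Over all its alternatives the adjusted p of Hoxa3 ran from 0.0307 (DESeq2) to 0.335 (edgeR, without WT organoid 385_1). As given above, Hoxa3 in WT organoids was already at the level of Eed KO organoids and of Eed KO crypts.

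The levels in the 2 kinds of Eed KO sample were also compared directly, a choice made after seeing the data. Of 35 genes, 7 were higher in crypts and none lower (edgeR, adjusted p under 0.05), where 15.6% of all genes were higher and 12.3% lower. The 7 of 35 are near that share. They were Hoxb7, Hoxb13, Hoxc6, Hoxc8, Hoxc9, Hoxc10 and Hoxc11, all of clusters b and c. Leaving out 1 library moved the count from 0 (without Eed KO organoid 385_1) to 16 (without Eed KO crypt 440_1), and without WT crypt 440_1 it was 15. Without Eed KO crypt 385_1 or 385_2 it was 1, and without Eed KO organoid 385_2 it was 3. Over all genes, 2939 of 14674 were higher without Eed KO crypt 440_1 and 2793 of 14712 without WT crypt 440_1. Without Eed KO crypt 385_1 it was 1444 of 14651, and without Eed KO crypt 385_2 it was 1734 of 14644. Within run 385, where both kinds were sequenced together, 18 Hox genes were higher, where 20.6% of all genes were. In that run the ratio of mean CPM, crypts to organoids, had a median of 1.60 over 11 genes of cluster a and 1.54 over 6 of cluster d without Hoxd1, and of 2.87 over 9 of cluster b and 3.83 over 9 of cluster c. With Hoxd1, which had few counts and a ratio of 3.24, the median of cluster d was 1.60 over 7. Hoxc10 differed most, with 8.75, 5.25 and 8.58 CPM in Eed KO crypts 385_1, 385_2 and 440_1 and 0.399 and 0.724 in organoids (log2 difference 3.62 ± 0.58, SE, adjusted p = 0.00669). Hoxc8 followed with 4.999, 5.75 and 2.35 CPM against 0.558 and 0.563 (2.92 ± 0.88, adjusted p = 0.0332). Hoxc13, at the end of the same cluster, was alike in both, with 1.80, 1.69 and 2.12 CPM against 2.23 and 1.61. Hoxd9 stood at 8.20, 6.35 and 7.76 CPM against 10.9 and 6.28, and its groups overlapped. The crypts were deleted for weeks in the animal and the organoids for days in culture, and induction time, culture and sex pattern cannot be told apart. Other cell types also moved with this comparison. All 8 immune markers and 7 of 11 mesenchymal, muscle and endothelial markers tested were higher in Eed KO crypts than in Eed KO organoids. Immune markers summed to 55.9 to 151 CPM in these crypts and to 2.15 to 3.14 in the organoids, and the other list to 94.4 to 148 against 10.9 to 14.7. Their part in the Hox difference was not tested.

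**Figure D5:**
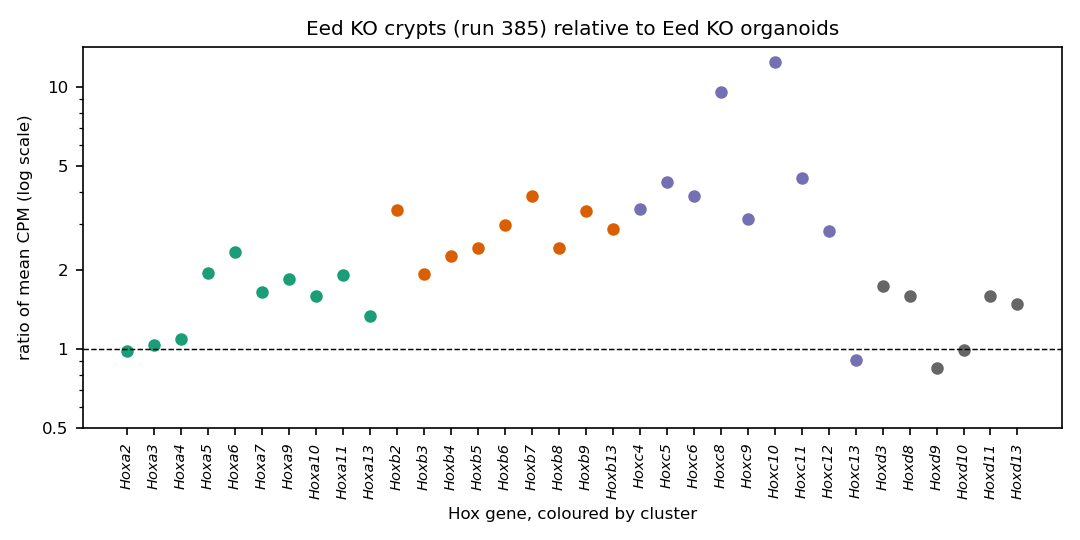
Ratio of the mean CPM in the 2 Eed KO crypts of run 385 to that in the 2 Eed KO organoids, on a log axis, for 34 Hox genes with a row in that run, Hoxd1 left out, coloured by cluster (green a, orange b, purple c, grey d). Genes of clusters b and c other than Hoxc13 lie at 1.93 to 12.5, and those shown of clusters a and d at 0.846 to 2.35.

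Genes that work with Hox proteins or lie next to the clusters were read from lists. Meis and Pknox proteins are homeodomain cofactors that bind DNA together with Hox proteins. In crypts 4 of 8 cofactors tested were higher. Meis1 stood at 13.9, 15.6 and 8.46 CPM in Eed KO 385_1, 385_2 and 440_1 and 0.623, 1.65 and 4.54 in WT (2.68 ± 0.68, SE, adjusted p = 0.0211, edgeR). Meis2 stood at 16.7 ± 3.81 CPM against 1.37 ± 1.45 (SD, n = 3, adjusted p = 0.00575). Meis3 and Pknox2 were the others higher. In organoids Meis1, Meis2 and Meis3 were higher of 8 tested, and Meis1 had no count in WT. Cdx1 and Cdx2 are relatives of the Hox genes that keep intestinal identity. Both were lower in Eed KO crypts. Cdx2 stood at 33.8, 31.6 and 111 CPM in Eed KO 385_1, 385_2 and 440_1 against 219, 183 and 189 in WT 385_1, 385_2 and 440_1 (-2.00 ± 0.34, adjusted p = 0.00365). Cdx1 fell by 1.89 ± 0.19 on the log2 scale (adjusted p = 0.000368). In organoids Cdx1 was lower (-1.29 ± 0.12, adjusted p = 0.000822) and Cdx2 was not called (-0.38 ± 0.12, adjusted p = 0.0648), with 151 and 157 CPM in Eed KO against 192 and 209. Pdx1, a foregut and pancreas gene, was higher in Eed KO crypts (2.26 ± 0.39, adjusted p = 0.00361) and not called in organoids.

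Of 27 transcripts inside or at the ends of the clusters that are not Hox genes, 4 passed the filter in crypts and all 4 were higher, where 13.4% of all genes were. In organoids 3 of 4 were higher, where 13.5% of all genes were. Those 3 were Hoxa11os, Gm53 and Hoxd3os1. In crypts and in organoids they passed the filter only through the Eed KO libraries, so these counts are a description. Hoxa11os, antisense to Hoxa11, had 343, 322 and 261 counts in Eed KO crypts 385_1, 385_2 and 440_1 and none in WT or Ezh2 KO (adjusted p = 0.000473, edgeR). Gm53, in cluster b, had 507, 512 and 441 counts against 0, 1 and 13 in WT 385_1, 385_2 and 440_1 (adjusted p = 0.000559). Hoxaas3 and Hoxd3os1 were the others. Reads of Hoxa11 and Hoxa11os cannot be told apart if counting ignored the strand. Evx1 and Evx2, homeobox genes at the posterior ends of clusters a and d, were too low to test. Evx1 had 12, 7 and 11 counts in the 3 Eed KO crypts and Evx2 16, 7 and 23, against none in WT or Ezh2 KO crypts or WT organoids. Of 45 protein-coding neighbours within 500000 bases of a cluster end, 37 were tested in crypts, where 8 were higher and 4 lower. Igf2bp1, an RNA-binding protein of fetal tissues, lies beyond Hoxb13 at chr11:95957163-96005940 (GRCm38). It stood at 49.1, 46.6 and 43.2 CPM in Eed KO crypts against 0.0890, 0.183 and 0.368 in WT (log2 fold change 7.62 ± 0.40, SE, adjusted p = 3.36e-05). In organoids it stood at 40.4 and 40.1 CPM against 0.301 and 0. Gip, a gut hormone gene that lies nearer to Hoxb13 than Igf2bp1 does, at chr11:96024545-96030831, was lower in Eed KO crypts (-1.85 ± 0.36, adjusted p = 0.00678) and higher in Eed KO organoids (2.04 ± 0.15, adjusted p = 0.000336). Ttll6, Zfp385a, Itga5, Abi3, Gngt2, Copz2 and Skap2 were the others higher in crypts, and B4galnt2, Sp1 and Cbx5 the others lower. The share of neighbours higher, 8 of 37, stands beside 13.4% of all genes. The 33 of 35 Hox genes higher is a description, since 27 of the 35 passed the filter only through Eed KO libraries. Of the 8 Hox genes that passed without those libraries, 7 were higher. In organoids 8 of 36 neighbours were higher and none lower.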

How the data were processed

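Polyadenylated RNA (TruSeq Stranded mRNA kit) was sequenced from 13 libraries, per the labels' protocols. The authors deposited 2 tables of read counts per gene, 1 for each run, joined here by Ensembl identifier. The submitters' processing notes name TopHat2 2.0.12, Bowtie 0.12.9, HTSeq, DESeq2 and GRCm38, with no role. Counts were tested with edgeR 4.0.16 (R 4.3.3, limma 3.58.1): TMM scaling, genes with at least 10 counts in enough libraries and 15 in all, robust quasi-likelihood fits, run as a term where groups span runs, and Benjamini-Hochberg adjustment over all genes at 0.05. The standard error is the log2 fold change over the root of F. CPM used TMM sizes over all 13 libraries, and RPKM the GENCODE exon length. A fold against no counts is a lower bound at 3 counts over the group. DESeq2 1.42.0, other scaling, no filter, single runs, left-out libraries and a replicate block were alternatives. The replicate block treated same-numbered libraries as pairs, and the main fits did not. Deviations from the group means correlated at 0.329, 0.166 and 0.360 in same-numbered WT and Eed KO crypts 440_1, 385_1 and 385_2. The differently numbered WT 385_2 and Eed KO 385_1 correlated at 0.350, and the other such pairs at -0.439 to 0.0101. With run means also removed, the value for 385_1 was 0.145. Whether the numbers mark pairs is therefore not settled. The members and gene lists were chosen with earlier results of these data known. Values in every library are printed for genes with a mean of at least 10 CPM in any group or 1 CPM in WT, and other genes are given by ranges, counts or as examples. The tests were also run on simulated counts with known changes, and the outcome is not given here. Some genes that entered the counts and sums are not reported here by name.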

Additional observations from a re-analysis of the deposited data

How the results depend on the processing

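Eed KO against WT crypts gave 33 Hox genes called. DESeq2 gave 31, and the same fit counted without Hoxd3, chosen after seeing the data, 32. Run 440 alone, with 1 WT, 1 Eed KO and 3 Ezh2 KO libraries, gave 15. Without the Ezh2 KO libraries the count was 30, and the replicate block on those libraries, which pairs same-numbered ones, gave 24 and changed no posterior call. The block gave 25 in organoids. With 1 library left out in turn the counts ran from 27 to 33 for Eed KO against WT crypts, from 0 to 1 for Ezh2 KO against WT, from 18 to 30 for Eed KO against Ezh2 KO and from 23 to 25 in organoids. They ran from 0 to 2 for the interaction, from 0 to 16 for Eed KO crypts against Eed KO organoids and from 0 to 9 for WT crypts against WT organoids. The interaction gave 1 call with DESeq2 and 1 in run 385 alone. Eed KO crypts against Eed KO organoids gave 18 in run 385 alone. With 1 crypt library left out in turn, the genes called higher over all genes also moved in number. They ran from 1289 to 2433 for Eed KO against WT crypts and from 1132 to 1984 for Eed KO against Ezh2 KO. The cause of these changes was not tested. No gene's value changed sign past the threshold under the alternatives run. Of single-gene values for Eed KO against WT crypts, 52 of the alternatives lost a call, 3 gained one and 537 kept their side. The order of genes by CPM and by RPKM had a Spearman rho, across 35 genes, of 0.954 in Eed KO crypts and 0.950 in organoids. Precision is limited by 2 or 3 libraries a group and, for genes with few WT counts, by depth.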

Other observations

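Markers of stomach and colon epithelium moved in the same libraries as the posterior Hox genes. Of 3 of these 7 genes tested in crypts, Gkn1, a stomach mucosa gene, and Sox2, a foregut transcription factor, were higher in Eed KO than in WT (edgeR, Benjamini-Hochberg). In organoids Gkn1 and Sox2 were also higher. The 7 markers summed to 41.4 to 57.8 CPM in Eed KO crypts, 9.62 to 18.2 in WT crypts and 15.6 to 24.1 in Ezh2 KO crypts. They summed to 12.5 to 16.7 CPM in Eed KO organoids and 4.28 to 5.26 in WT organoids.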
